A study of Mus musculus with 24 samples.

Results

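The mitochondrial ribosomal protein genes are the nuclear genes whose symbol is Mrpl or Mrps, a number and at most 1 further letter. By this rule 78 genes were found among the 29759 genes of the deposited tables, and all 78 had a mean of at least 1 FPKM (fragments per kilobase of transcript, scaled to library depth) in both tables. The cells were E14, a mouse embryonic stem cell line, in 2 pluripotent states. EpiLC (epiblast-like cells) were made over 3 days with bFGF at 12 ng/ml together with activin A at 20 ng/ml, and nESC (naive embryonic stem cells) were kept in N2B27 medium with LIF and 2 inhibitors, PD0325901 and CHIR99021. From each state chromatin, nucleoplasmic, cytoplasmic and total RNA were sequenced after ribosomal RNA depletion, with 3 libraries in each of the 8 groups. All groups share the E14 line, and the labels do not say whether the 3 libraries of a group came from separate cultures, so p-values measure the spread between libraries only.

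Mitochondria keep their own ribosome, which makes the 13 proteins encoded in the mitochondrial genome, all of them parts of the respiratory chain and ATP synthase. Its RNAs come from the mitochondrial genome, but its proteins are encoded in the nucleus, translated in the cytosol and imported. Part of them descend from bacterial ribosomal proteins, and the others are specific to mitochondria. Of the 78 genes, 51 encode proteins placed in the large subunit, Mrps18a and Mrps30 among them despite their names, and 26 encode proteins of the small subunit. Mrps36 carries the name but is known as Kgd4, a subunit of the 2-oxoglutarate dehydrogenase complex. Bacterial homologues numbered 45 and mitochondria-specific proteins 32.

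Promoters are shown for 4 members. In the values as deposited, Mrps23 was the lowest member for EpiLC chromatin against cytoplasm, and Mrpl12 for nucleoplasm against cytoplasm in both states. Mrpl1 was the 1 member whose chromatin libraries all lay above its cytoplasm libraries in both states. Mrps12 shares its promoter region with a mitochondrial tRNA synthetase gene. The sequences are from RefSeq (GRCm38.p6), 280 bases from 250 before to 30 after the gene start, 5′ to 3′ on the strand of the gene, and capitals mark a match to an ETS or NRF1 motif on either strand.
Mrps23 (chr11:88204138-88204417, plus strand): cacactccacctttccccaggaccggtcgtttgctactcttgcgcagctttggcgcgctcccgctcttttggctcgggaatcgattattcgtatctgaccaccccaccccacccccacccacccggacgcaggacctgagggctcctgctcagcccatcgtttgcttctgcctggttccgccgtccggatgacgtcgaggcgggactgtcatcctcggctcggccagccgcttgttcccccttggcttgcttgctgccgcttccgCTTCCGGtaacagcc
Mrpl12 (chr11:120484387-120484666, plus strand): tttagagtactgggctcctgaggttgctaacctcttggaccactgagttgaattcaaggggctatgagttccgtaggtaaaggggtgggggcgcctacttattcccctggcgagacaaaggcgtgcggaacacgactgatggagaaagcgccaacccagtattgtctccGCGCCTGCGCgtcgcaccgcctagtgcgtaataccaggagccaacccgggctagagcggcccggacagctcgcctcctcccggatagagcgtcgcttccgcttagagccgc
Mrpl1 (chr5:96209865-96210144, plus strand): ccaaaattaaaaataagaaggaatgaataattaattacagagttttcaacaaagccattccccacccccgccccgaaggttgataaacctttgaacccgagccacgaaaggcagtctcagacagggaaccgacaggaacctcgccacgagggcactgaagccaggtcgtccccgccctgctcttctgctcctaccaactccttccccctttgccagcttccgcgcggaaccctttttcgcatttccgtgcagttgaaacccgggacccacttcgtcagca
Mrps12 (chr7:28741792-28742071, minus strand): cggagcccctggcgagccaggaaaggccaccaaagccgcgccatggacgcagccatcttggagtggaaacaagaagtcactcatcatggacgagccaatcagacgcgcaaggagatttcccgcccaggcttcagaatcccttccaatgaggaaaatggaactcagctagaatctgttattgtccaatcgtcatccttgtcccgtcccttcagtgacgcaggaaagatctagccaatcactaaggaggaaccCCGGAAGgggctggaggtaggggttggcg

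The Mrps12 promoter held the ETS letters from its 2nd transcribed base and the Mrps23 promoter held them from base 16, read on the minus strand. Mrpl12 held the NRF1 letters starting 81 bases before its gene start, and Mrpl1 held neither. The Mrpl1 sequence follows the RefSeq start and lies inside the gene as annotated in GENCODE M21, which begins at base 96209493. Bases before that earlier start were not searched. RefSeq gave 75 promoters for 69 members. The ETS letters CCGGAAG, which GA-binding protein and other ETS factors bind, stood in 26 of the 75 (34.7%), against 11.5% of 21187 promoters of other protein-coding genes and 8.86% of all promoters of that length. For the NRF1 letters GCGCA, any base and GCGC, bound by a regulator of many nuclear genes of mitochondrial proteins, the shares were 17.3% of member promoters, 6.34% of other coding promoters and 4.60% of all. The YY1 letters AAGATGGCG stood in 10.7% of member promoters, 1.80% of other coding promoters and 1.40% of all. Both strands were searched, the 3 motifs do not contain each other, and 41 of the 75 member promoters held at least 1 of them, against 17.8% of other coding promoters and 13.6% of all. Shares were closer for the SP1 letters GGGCGG (52.0% of members, 46.2% of other coding and 35.7% of all) and for CCAAT (40%, 38.2% and 37.4% in the same order), and TATAAA stood in 6.67% of member promoters, 12.6% of other coding promoters and 13.6% of all. Member promoters were rich in CpG, with a median of 21 CpG in the 300 bases of the table against 13 in other coding promoters, and a median GC content of 58.7% against 56.3%.

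A start of another protein-coding gene lay within 1000 bp on the opposite strand for 33 of the 78 members (42.3%), against 17.7% of 10796 other protein-coding genes with at least 1 FPKM in both tables. Several of these neighbours are themselves mitochondrial genes. Mrps12 starts 172 bp from Sars2, the mitochondrial seryl-tRNA synthetase. Mrpl46 and Mrps11 start 412 bp apart. Mrpl36 starts 29 bp from Ndufs6, a subunit of respiratory complex I, and Mrpl43 starts 779 bp from Twnk, the mitochondrial DNA helicase. Members were also short genes. Their median exonic length, counting bases in an exon of any annotated transcript, was 2394 bp against 4426 bp for 10874 expressed protein-coding genes. Their median genomic span was 7900 bp against 22934 bp.

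The states carried their labels' markers. The summed FPKM of 5 naive markers (Nanog, Zfp42, Esrrb, Klf4, Tcl1) in total RNA was 33.3 to 35.9 in EpiLC and 918 to 952 in nESC, and that of 4 formative markers (Fgf5, Pou3f1, Otx2, Dnmt3b) was 928 to 968 in EpiLC and 25.9 to 26.4 in nESC. No primitive endoderm marker of 6 reached 1 FPKM in total RNA of either state, and of 5 fibroblast markers 1 did in each. Of 4 mesoderm and neural markers 0 did in EpiLC and 1, T, did in nESC (12.4 FPKM). The nuclear RNA Malat1 read 0 FPKM in nESC nucleoplasm replicate 3, against 3810 and 3590 FPKM in replicates 1 and 2. In EpiLC the chromatin library of replicate 3 stood apart, with 5.41% of its FPKM sum from mitochondrial genome messages against 1.76% and 1.19% in the other 2. Of the 78 members, 53 had their highest EpiLC chromatin value in that library and 67 had their lowest EpiLC cytoplasm value in the cytoplasm library of replicate 3. Member counts in EpiLC are therefore given also without these 2 libraries. The EpiLC nucleoplasm library of replicate 3 also stood apart, with 10.5% mitochondrial messages against 5.48% and 5.44%, and 42 members were lowest in it. It was left out only on its own. Leaving out 1 EpiLC library at a time gave 50 to 56 members called lower for nucleoplasm minus cytoplasm and 53 to 55 for chromatin minus nucleoplasm. How all genes were ordered in these libraries was not counted. The sum of FPKM was 432706 to 504959 in chromatin libraries and 1555123 to 1980223 in cytoplasm libraries over both states, so scaling each library to 1 sum moved the median chromatin minus cytoplasm difference of all genes to 1.69 (log2) in EpiLC and 1.85 in nESC, against 0.00 and 0.04 as deposited. Differences within a state are of values as deposited, on the log2(FPKM + 0.5) scale, unless another scaling is named.

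In total RNA all members were well expressed. Their mean FPKM ran between 8.07 (Mrpl57) and 208 (Mrpl52) in EpiLC, with a median of 49.9, and between 10.7 (Mrpl57) and 251 (Mrpl52) in nESC, with a median of 54.8. The large-subunit gene Mrpl52 had 219.6, 203 and 202 FPKM in EpiLC and 280.03, 242 and 230.3 FPKM in nESC. After it came Mrpl17 (150.0 FPKM), Mrpl33 (148), Mrpl34 (148) and Mrpl15 (142) in EpiLC, and Mrpl17 (226), Mrps21 (204), Mrps5 (178) and Mrps16 (178) in nESC. The spread between libraries was small in total RNA, with a median coefficient of variation of 3.36% in EpiLC and 5.15% in nESC, so that the top member exceeded the next beyond its SD in EpiLC (208 ± 9.60 for Mrpl52 and 150.0 ± 13.0 for Mrpl17, SD, n = 3) but not in nESC (251 ± 26.0 and 226 ± 9.87). The lowest members after Mrpl57 were Mrpl19 (15.3), Mrps6 (15.6), Mrpl35 (17.3) and Mrpl1 (19.6) in EpiLC and Mrps15 (17.5), Mrps27 (20.2), Mrps6 (20.5) and Mrpl55 (21.2) in nESC. Together the 78 members made 0.584% to 0.602% of the FPKM sum of EpiLC total RNA and 0.582% to 0.605% of that of nESC total RNA. Cytosolic ribosomal protein genes were far more abundant, with a median of 2143 FPKM in EpiLC and 3178 FPKM in nESC.

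**Figure D1:**
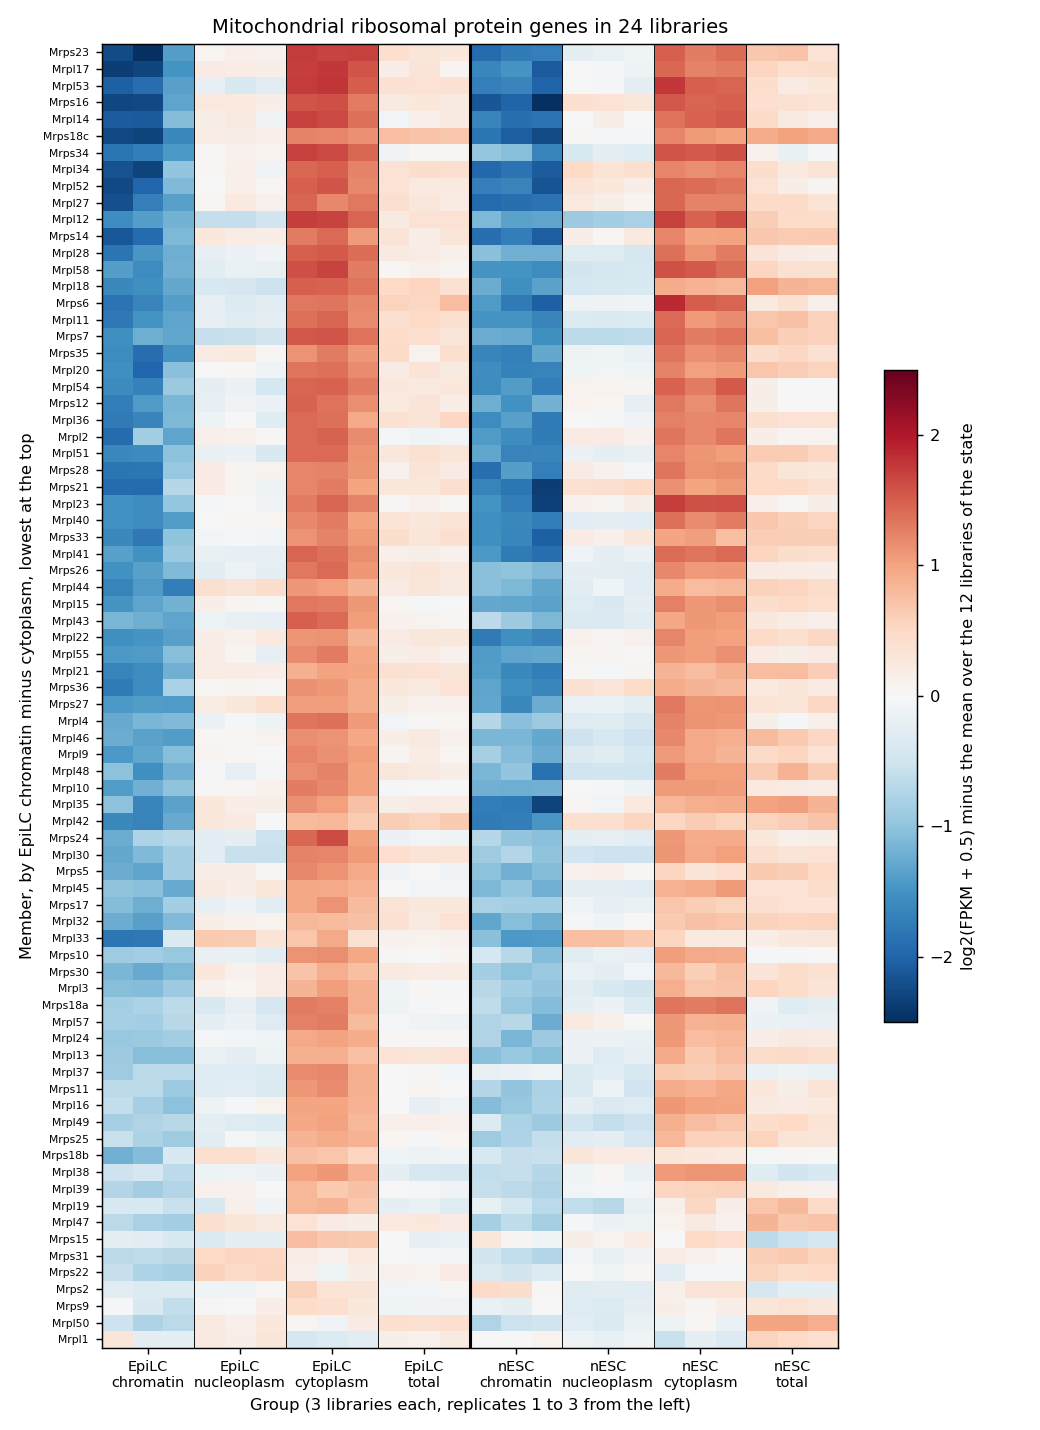
Each row is 1 of the 78 members and each column 1 of the 24 libraries, coloured by log2(FPKM + 0.5) minus the member's mean over the 12 libraries of that state, from blue (lower) to red (higher), as deposited. Rows are sorted by EpiLC chromatin minus cytoplasm, lowest at the top. Chromatin libraries are blue and cytoplasm libraries red for most rows in both states, and the pattern fades toward Mrpl1 in the last row.

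Chromatin RNA, which holds transcripts still attached to their template, was compared with cytoplasmic RNA. In both states nearly all mitochondrial ribosomal protein messages were lower on chromatin than in the cytoplasm. A gene was called when limma's moderated test gave a Benjamini-Hochberg adjusted p under 0.05 over all genes tested and a fold of at least 2. In EpiLC 72 of 78 members were called lower and 0 higher, where 28.4% of 12834 genes tested were called lower. In nESC 67 were called lower and 0 higher, where 29.7% of 12592 genes were called lower. The 67 of nESC were all among the 72 of EpiLC. The median member difference was -2.43 in EpiLC and -2.25 in nESC, against medians of all genes of 0.00 and 0.04. After scaling to 1 sum the member medians stayed negative, at -0.62 in EpiLC and -0.31 in nESC, but 19 (EpiLC) and 16 (nESC) members were called lower and 5 and 11 higher. With that scaling 5.16% of all genes in EpiLC and 5.96% in nESC were called lower, and 65.4% and 66.8% higher. Measured against the median of all genes, 77 members in EpiLC and 76 in nESC lay below it with either scaling. Without both EpiLC libraries numbered 3 the EpiLC count was 71 (29.4% of all genes). Groups did not overlap, with chromatin lower, for 77 members in EpiLC (41.6% of all genes) and 75 in nESC (42.5% of all genes).

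Mrps23, a small-subunit protein found only in mitochondria (ENSMUSG00000023723, chr11:88204388-88211507, GRCm38, plus strand), gave the lowest value in EpiLC. It had 11.3, 7.71 and 21.0 FPKM in EpiLC chromatin and 188, 179 and 182 FPKM in EpiLC cytoplasm, and 13.8, 15.7 and 16.1 FPKM in nESC chromatin against 152, 131 and 142 FPKM in nESC cytoplasm. Every chromatin library lay far below every cytoplasm library. The difference was -3.84 ± 0.24 (SE; limma adjusted p = 1.27e-08) in EpiLC, -4.22 without both EpiLC libraries numbered 3, and -3.18 ± 0.10 (adjusted p = 7.20e-12) in nESC. SEs and p-values here rest on a spread shared by all fractions of a state. Chromatin libraries varied more, with a median coefficient of variation of members of 15.0% in EpiLC chromatin against 3.36% in EpiLC total RNA. SEs and p-values of chromatin differences may therefore be too small. Mrps16, the bS16 homologue (ENSMUSG00000049960, chr14:20389304-20393634, minus strand), was lowest in nESC. Its FPKM were 30.4, 33.8 and 23.1 in nESC chromatin against 400.5, 375 and 383 in nESC cytoplasm, a difference of -3.72 ± 0.11 (limma adjusted p = 2.80e-12). In EpiLC they were 21.9, 22.3 and 42.8 on chromatin and 322, 328 and 266 in the cytoplasm (-3.44 ± 0.20), and the chromatin library of replicate 3 was the highest of its group while still below all cytoplasm libraries.

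Other members with differences among the 6 lowest were, in EpiLC, Mrpl17 (-3.74), Mrpl53 (-3.45), Mrpl14 (-3.33) and Mrps18c (-3.26), and in nESC Mrpl23 (-3.49), Mrpl53 (-3.36), Mrps6 (-3.35), Mrpl14 (-3.25) and Mrpl52 (-3.23). Mrpl14, Mrpl17 and Mrpl23 encode homologues of bacterial large-subunit proteins, and Mrps6 one of the small subunit. Some of these values are uncertain because exons overlap: 88.0% of the exonic bases of Mrpl53 and 23.2% of those of Mrps18c are shared with another gene on the same strand. On the same strand Mrps6 shares 19.9% with Gm49711 and 10.4% with Slc5a3. Mrpl23 has a pseudogene copy, Mrpl23-ps1.

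**Figure D2:**
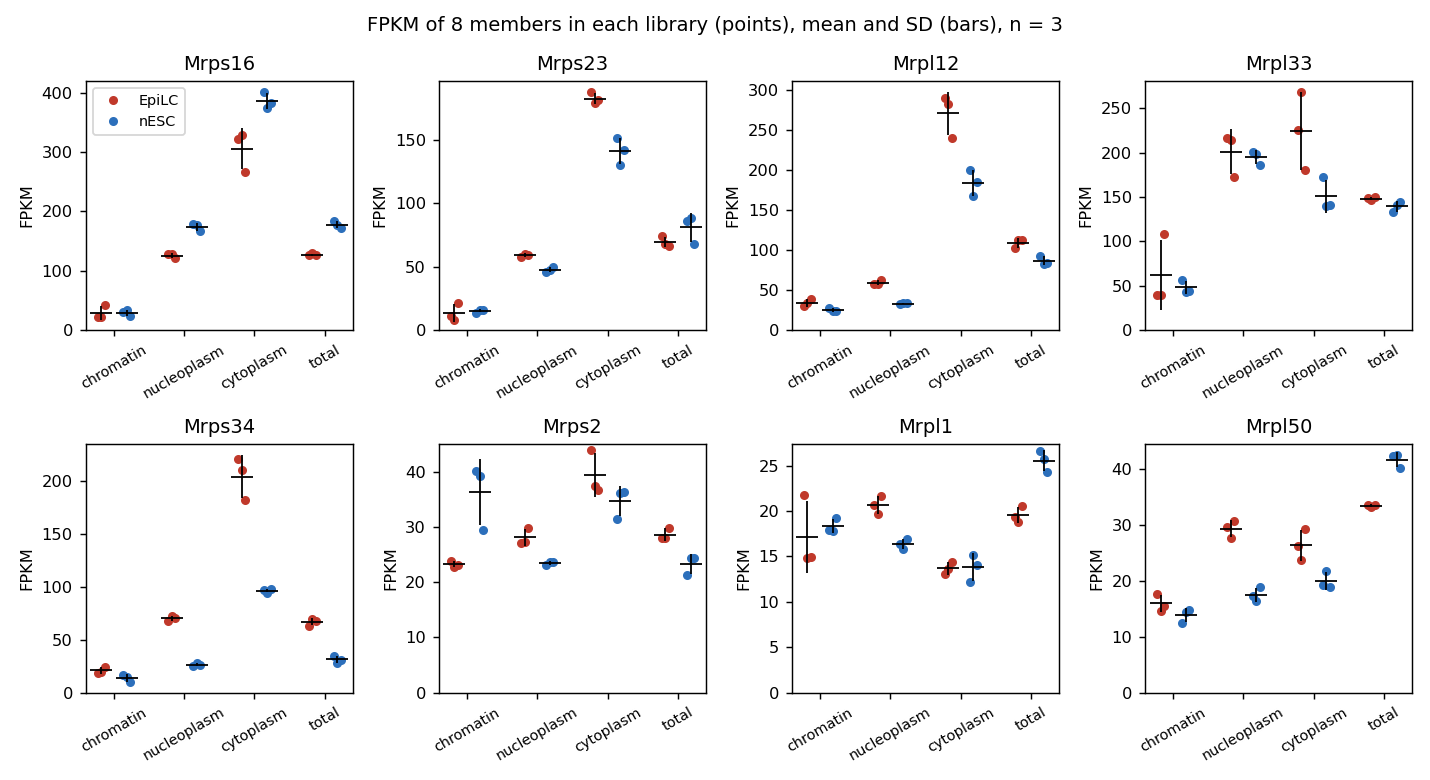
FPKM of 8 members in each fraction, EpiLC points left of nESC points, with 3 libraries per group; horizontal bars are means and vertical bars SDs. Mrps16, Mrps23, Mrpl12 and Mrps34 are highest in the cytoplasm and lowest on chromatin, Mrpl33 nucleoplasm and cytoplasm overlap in EpiLC while its nESC nucleoplasm lies above its nESC cytoplasm, Mrpl1 is lowest in the cytoplasm, and Mrps2 and Mrpl50 differ less than 2-fold between chromatin and cytoplasm.

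Members that did not pass the call make the other end. In EpiLC they were Mrpl1 (0.29), Mrpl50 (-0.71), Mrps9 (-0.71), Mrps2 (-0.74), Mrps22 (-0.78) and Mrps31 (-0.86), and in nESC these 6 and another 5 (Mrps15, Mrpl19, Mrps18b, Mrpl37 and Mrpl47) were not called. Mrpl1 (ENSMUSG00000029486, chr5:96209493-96266727, plus strand) encodes the homologue of the bacterial protein of the L1 stalk, where spent tRNA leaves the ribosome. Its FPKM were 21.7, 14.9 and 14.9 in EpiLC chromatin and 13.03, 13.6 and 14.4 in EpiLC cytoplasm. In nESC they were 17.9, 17.8 and 19.2 on chromatin and 12.2, 15.2 and 14.1 in the cytoplasm. Chromatin libraries were all above cytoplasm libraries in both states, as for 41.1% of all genes in EpiLC and 43.4% in nESC, by less than 2-fold (0.29 ± 0.13 in EpiLC and 0.40 ± 0.09 in nESC). After scaling to 1 sum it was called higher on chromatin, by 2.08 in EpiLC and 2.31 in nESC. After correction for exonic length and GC content the sign turned, to -0.50 in EpiLC and -0.45 in nESC. Mrps2, the uS2 homologue of the small subunit (ENSMUSG00000035772, chr2:28468066-28471178, plus strand), had 23.8, 22.8 and 23.1 FPKM in EpiLC chromatin against 43.9, 37.4 and 36.8 FPKM in EpiLC cytoplasm. In nESC chromatin it had 40.2, 39.3 and 29.5 FPKM against 31.5, 36.1 and 36.4 FPKM in nESC cytoplasm, so the groups overlapped there and the difference of 0.06 ± 0.11 had an adjusted p of 0.645 by limma. After scaling to 1 sum Mrps2 was called higher on chromatin in both states (1.07 in EpiLC and 2.00 in nESC).

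By subunit and by descent the medians lay close together. Large-subunit members had a median of -2.42 in EpiLC and -2.24 in nESC (49 and 46 of 51 called lower), and small-subunit members -2.51 and -2.36 (22 and 20 of 26). Bacterial homologues had a median of -2.44 in EpiLC and -2.41 in nESC, and mitochondria-specific proteins -2.41 and -2.21. Among members with known roles, Mrps12, the decoding-centre protein, was lower on chromatin by -2.76 ± 0.13 in EpiLC and -2.58 ± 0.11 in nESC. Mrpl12, the stalk protein that recruits translation factors, differed by -2.99 ± 0.11 and -2.85 ± 0.08. Mrpl58, known also as Ict1, which frees stalled ribosomes by hydrolysing peptidyl-tRNA, differed by -2.91 ± 0.12 and -3.02 ± 0.07. Mrpl44, which has an RNase III-like fold, differed by -2.59 ± 0.10 and -2.01 ± 0.08. Mrps36, the member that is no ribosomal protein, lay in the middle at -2.43 ± 0.18 in EpiLC and -2.36 ± 0.08 in nESC, and has 3 pseudogene copies that may share its reads. The 3 relatives of bacterial S18, of which Mrps18a and Mrps18b were counted above as mitochondria-specific, were unlike each other. Mrps18c gave -3.26 ± 0.15 and -3.14 ± 0.09, Mrps18a, placed in the large subunit, -1.91 ± 0.11 and -2.21 ± 0.10, and Mrps18b -1.54 ± 0.17 in EpiLC and -0.78 ± 0.06 in nESC, where it was not called. Of the Mrps18b exonic bases 30.5% lie opposite an antisense gene, and strand use in the authors' counting is not given in the sources used here.

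**Figure D3:**
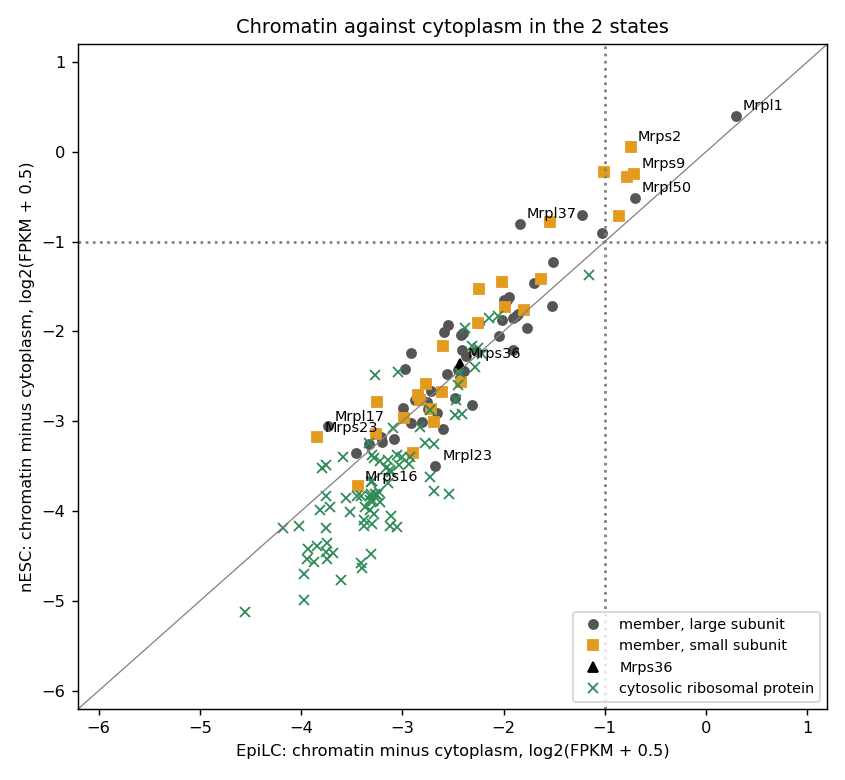
Each point is 1 gene, with its chromatin minus cytoplasm difference as deposited in EpiLC on the x axis and in nESC on the y axis (log2(FPKM + 0.5)); dotted lines mark a 2-fold lower value and the grey line equality. Members of either subunit lie along the line, from about -3.8 to above 0 for Mrpl1, and cytosolic ribosomal protein genes lie lower, with Rpl12 (2.44 in nESC) outside the frame.

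Across the 78 members, the chromatin minus cytoplasm differences of EpiLC and nESC, which share no library, had Pearson r = 0.93 and Spearman rho = 0.92. Members with a smaller exonic length lay lower: the difference and exonic length had Spearman rho = 0.47 in EpiLC and 0.49 in nESC across members. The relation was general, with rho = 0.42 and 0.44 over all genes tested. Against the level in total RNA, the difference had rho = -0.38 in EpiLC and -0.29 in nESC across members. Members were split in 3 equal groups by length. In the shortest (607 to 1666 bp) the median was -2.79 in EpiLC and -2.86 in nESC, against -1.39 and -1.63 for other genes of those lengths. In the longest (3305 to 8631 bp) it was -2.003 in EpiLC and -1.77 in nESC, against 0.19 and 0.26 for other genes. Members were thus below other genes of like length in each of the 3 groups. With a fitted correction for length and GC content, 66 members in EpiLC and 55 in nESC were called lower, and 0 and 1 higher, where 23% and 23.8% of all genes were called lower and 23.2% and 25.8% higher.

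**Figure D4:**
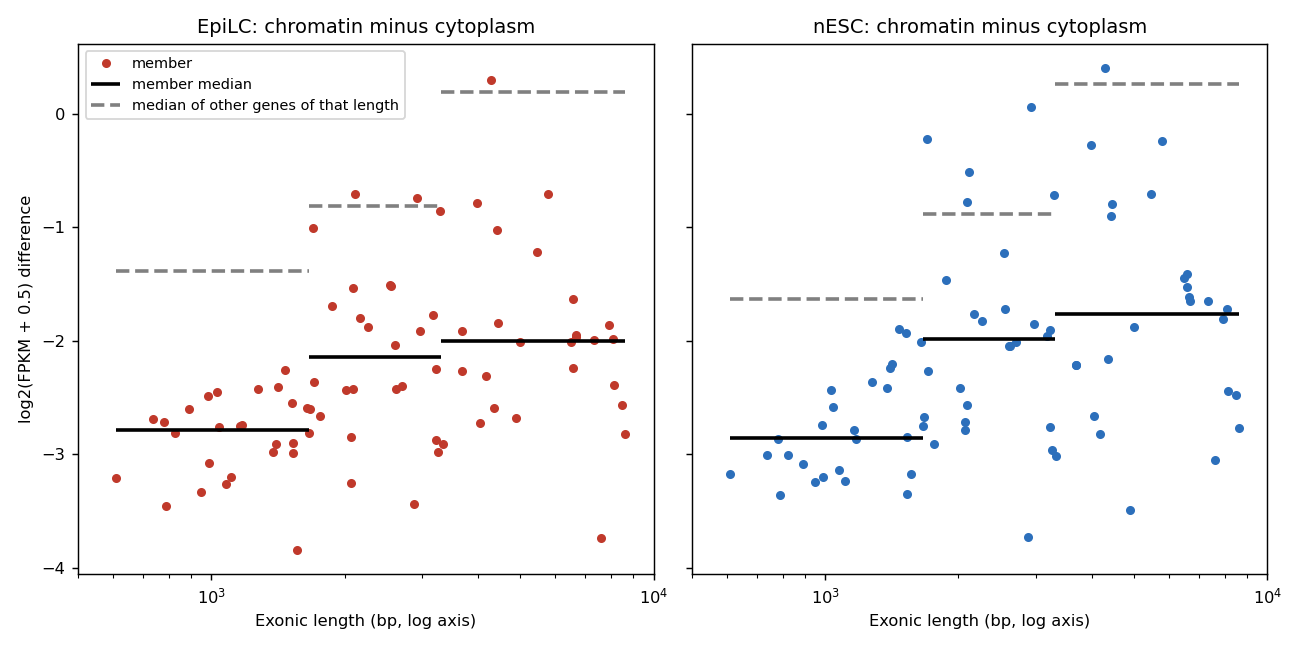
Chromatin minus cytoplasm difference of each member as deposited (log2(FPKM + 0.5), y axis) against its exonic length (x axis, log scale), EpiLC left and nESC right. Solid bars are the member medians in 3 groups of length and dashed bars the medians of other genes of the same lengths, which lie above the member medians in all 3 groups of both states.

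The nucleoplasmic fraction is meant to hold released nuclear RNA, and it was compared with the cytoplasm. Mitochondrial genome messages made 5.44% to 10.5% of its FPKM sum in EpiLC and 3.75% to 4.27% in nESC. The fraction may thus not be nuclear RNA alone, and how long a message stays in the nucleus was not measured. Members were mostly lower in the nucleoplasm, but less so than on chromatin. In EpiLC 54 of 78 were called lower and 0 higher (19.1% of all genes called lower), and in nESC 52 and 0 (19.5%). Of these, 46 were called in both states. Without both EpiLC libraries numbered 3 the EpiLC count was 56 (21% of all genes). With the correction for length and GC content 30 members in EpiLC and 25 in nESC were called lower, where 11.5% and 11% of all genes were. The median difference was -1.14 in EpiLC and -1.15 in nESC, against -0.15 and -0.08 for all genes. After scaling to 1 sum the member median was -0.12 in EpiLC and turned to 0.11 in nESC, while the median of all genes was 0.71 and 0.98, so that members stayed below all genes by 0.83 and 0.87. With that scaling 2 (EpiLC) and 1 (nESC) members were called lower and 5 and 8 higher, where 1.71% and 1.02% of all genes were called lower and 40% and 48.9% higher.

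Mrpl12 (ENSMUSG00000039640, chr11:120484613-120489065, plus strand) was the lowest member here in both states. Its FPKM were 57.9, 57.5 and 62.5 in EpiLC nucleoplasm against 290.1, 282 and 240.5 in EpiLC cytoplasm, and 32.1, 33.2 and 34.1 in nESC nucleoplasm against 199, 167 and 185 in nESC cytoplasm. The nucleoplasm libraries lay close together and far below the cytoplasm ones. The difference was -2.18 ± 0.11 (limma adjusted p = 1.32e-08) in EpiLC and -2.45 ± 0.08 (9.18e-11) in nESC. Mrps7, the uS7 homologue of the small-subunit head, followed with 16.0, 16.2 and 17.3 FPKM in EpiLC nucleoplasm against 71.2, 72.2 and 62.8 FPKM in EpiLC cytoplasm (-2.02 ± 0.10), and it had the same difference in nESC (-2.02 ± 0.09). After them came Mrpl53 (-1.97) and Mrpl18 (-1.87) in EpiLC, and Mrpl58 (-1.94) and Mrps34 (-1.86) in nESC. Mrpl33, the bL33 homologue of the large subunit, was at the other end (ENSMUSG00000106918, chr5:31596935-31664384, plus strand). It had 217, 215 and 172 FPKM in EpiLC nucleoplasm against 225, 268 and 180.2 FPKM in EpiLC cytoplasm, and 200.3, 198 and 186 FPKM in nESC nucleoplasm against 172, 139.5 and 141 FPKM in nESC cytoplasm. The EpiLC groups overlapped (-0.15 ± 0.31), and the nESC nucleoplasm was higher by less than 2-fold (0.37 ± 0.11), or by 1.64 and called after scaling to 1 sum.

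Between the 2 nuclear fractions, members were lower on chromatin than in the nucleoplasm. In EpiLC 55 of 78 were called lower (16.7% of all genes) and in nESC 38 (17.3%), with 0 higher in either, and 37 were shared, which is 67.3% of the EpiLC list and 97.4% of the nESC list. Without both EpiLC libraries numbered 3 the EpiLC count was 54 (18.3% of all genes). The median difference was -1.27 in EpiLC and -0.98 in nESC, against -0.07 and 0.02 for all genes, and after scaling to 1 sum it was -0.49 and -0.28. With that scaling 12 (EpiLC) and 18 (nESC) members were called lower and 0 and 1 higher, the 1 being Mrps2 (1.31), where 3.91% and 7.31% of all genes were called lower and 37.5% and 38.6% higher. The lowest members were Mrpl17 (-2.22), Mrps23 (-2.22) and Mrps18c (-2.22) in EpiLC and Mrps16 (-2.58), Mrpl34 (-2.38) and Mrps21 (-2.36) in nESC. Mrpl33 was lower on chromatin than in the nucleoplasm, with 39.1, 39.7 and 108 FPKM in EpiLC chromatin and 56.7, 43.2 and 44.0 FPKM in nESC chromatin. Its chromatin minus nucleoplasm difference was -1.85 ± 0.31 in EpiLC, -2.33 without the chromatin library of replicate 3, and -2.02 ± 0.11 in nESC. Mrpl12 showed the reverse order of contrasts, with most of its difference between nucleoplasm and cytoplasm and little between chromatin and nucleoplasm (-0.81 ± 0.11 in EpiLC and -0.40 ± 0.08 in nESC, neither called).

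Cytoplasmic RNA was higher than total RNA for many members. In EpiLC 34 of 78 were called higher and 0 lower (12.7% of all genes called higher), and 41 were called higher without both EpiLC libraries numbered 3 (15.2% of all genes). In nESC 18 were called higher and 1, Mrpl50, lower, where 16% of all genes passed as higher and 19.4% as lower. The median difference was 0.97 in EpiLC and 0.68 in nESC, against 0.16 and 0.11 for all genes. This direction rested on the scaling: with libraries scaled to 1 sum 0 members were called higher and 3 in EpiLC and 10 in nESC lower, where 38.0% and 39.6% of all genes were called lower and 0.358% and 1.77% higher. Members stayed above the median of all genes by 0.70 and 0.44. Mrps34, a small-subunit protein (ENSMUSG00000038880, chr17:24895116-24897502, plus strand), was highest in both states. It had 221, 211 and 182 FPKM in EpiLC cytoplasm against 63.2, 69.4 and 68.1 FPKM in EpiLC total RNA (1.60 ± 0.11), and 96.8, 94.7 and 97.9 FPKM in nESC cytoplasm against 34.9, 28.4 and 31.2 FPKM in nESC total RNA (1.61 ± 0.14). Its exons share 37.0% of their bases with Nme3 on the same strand and 63.4% with Mapk8ip3 on the other. Mrpl50, a mitochondria-specific large-subunit protein, had 26.1, 23.7 and 29.3 FPKM in EpiLC cytoplasm against 33.6, 33.1 and 33.6 FPKM in EpiLC total RNA, and 19.3, 21.8 and 18.8 FPKM in nESC cytoplasm against 42.4, 42.5 and 40.1 FPKM in nESC total RNA. The nESC difference of -1.04 ± 0.09 passed the call (limma adjusted p = 3.13e-07) and the EpiLC one of -0.34 ± 0.10 did not; with each library centred on its median the nESC difference was -0.88 and was not called. Mrpl1 was also lower in the cytoplasm than in total RNA, by less than 2-fold (-0.50 ± 0.13 in EpiLC and -0.87 ± 0.09 in nESC), and by -1.46 and -1.79, both called, after scaling to 1 sum.

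**Figure D5:**
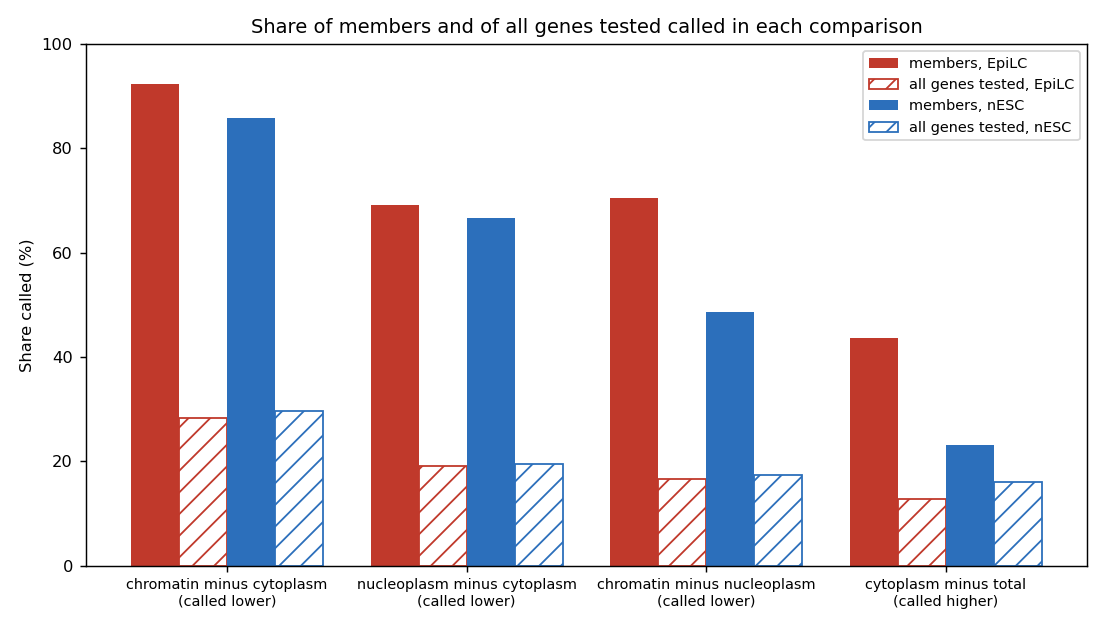
Bars give the share (%) of the 78 members (filled) and of all genes tested (hatched) called in each comparison of values as deposited, EpiLC in red and nESC in blue. The member share exceeds that of all genes in each comparison, most for chromatin minus cytoplasm (72 and 67 of 78 members against 28.4% and 29.7% of all genes); scaling to 1 sum lowers these counts to 19 and 16 and turns the cytoplasm minus total calls to lower.

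The difference between states in these distributions was tested on the 11704 genes that passed the filter in both tables, with each library centred on its median. For chromatin minus cytoplasm, EpiLC minus nESC, 0 of 78 members were called by limma (8.92% of all genes), with 14 at an unadjusted p under 0.05 and 6 at an adjusted p under 0.05 but less than 2-fold. The median member difference was -0.01, against -0.02 for all genes. Mrpl37, of the large subunit, came nearest on the negative side (-0.95 ± 0.17, adjusted p = 0.00226). It had 23.2, 27.1 and 27.4 FPKM in EpiLC chromatin against 100.04, 101 and 82.2 FPKM in EpiLC cytoplasm, but 34.1, 34.9 and 35.9 FPKM in nESC chromatin against 61.7, 59.4 and 62.5 FPKM in nESC cytoplasm. It crossed the 2-fold line when the libraries were not centred (-1.04) or were scaled to 1 sum (-1.17), without the filter (-1.05), without both EpiLC libraries numbered 3 (-1.11), when the chromatin library of EpiLC replicate 3 was left out (-1.003) and when the cytoplasm library of that replicate was left out (-1.06). On the positive side Mrpl23 came nearest (0.91 ± 0.29, adjusted p = 0.0409), and crossed the line without EpiLC chromatin replicate 1 (1.01), EpiLC chromatin replicate 2 (1.02) or nESC chromatin replicate 1 (1.08). It was 0.64 (limma adjusted p = 0.111) without both EpiLC libraries numbered 3, 0.70 (0.0649) without EpiLC chromatin replicate 3 and 0.69 (0.0470) after scaling to 1 sum. For nucleoplasm minus cytoplasm 0 members were called (2.63% of all genes), with 32 at an unadjusted p under 0.05 and 24 at an adjusted p under 0.05. The shares of all genes given for both comparisons include the 2-fold rule. Shares at the p thresholds alone are not given, so these p-value counts cannot be read against all genes. The extremes were Mrps15, a small-subunit member (-0.73 ± 0.15), and Mrps27, an RNA-binding protein of the small subunit (0.71 ± 0.12).

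The states were deposited as separate tables, and whether these share 1 scale is not given in the sources, so levels between states are given side by side with no test. In total RNA 63 members were lower and 15 higher in EpiLC than in nESC. Their median was -0.27 on the log2 scale (-0.01 for all genes). With libraries scaled to 1 sum 44 were lower and 34 higher, with a median of -0.05 (0.20 for all genes). In the fractions the member median was close to that of all genes, at -0.08 (-0.02 for all genes) in chromatin, 0.09 (0.11) in nucleoplasm and 0.09 (0.13) in cytoplasm. Scaled to 1 sum the cytoplasm median was 0.27 (0.27 for all genes), with 64 of 78 members higher. Mrps34 was more than 2-fold higher, with 63.2, 69.4 and 68.1 FPKM in EpiLC total RNA and 34.9, 28.4 and 31.2 FPKM in nESC total RNA (1.08), and it was also higher in the cytoplasm (1.07) and nucleoplasm (1.41). Mrpl34 (0.79) and Mrps27 (0.73) followed in total RNA. Mrps5, the uS5 homologue, was more than 2-fold lower in total RNA, with 74.97, 80.1 and 74.4 FPKM in EpiLC and 185, 181 and 167 FPKM in nESC (-1.21). In cytoplasm it was not, with 184, 174 and 154 FPKM in EpiLC against 171, 148 and 159 FPKM in nESC. Mrpl19 (-1.11) and Mrpl35 (-1.02) were also 2-fold lower in EpiLC total RNA, while Mrps5, Mrpl19 and Mrpl35 were within 2-fold after scaling to 1 sum (-0.99, -0.89 and -0.81).

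Other lists of mitochondrial genes are read against the 28.4% (EpiLC) and 29.7% (nESC) of all genes called lower on chromatin than in the cytoplasm, and the 29.1% and 31.8% called higher; their difference from the members was not tested. Of 6 mitoribosomal proteins that carry no Mrp name, 4 were called lower on chromatin than in the cytoplasm in each state, among them Chchd1 (-3.32 in EpiLC and -3.19 in nESC). Ptcd3, a pentatricopeptide protein of the small subunit, was called higher on chromatin (2.01 and 2.72). Of 12 translation factors measured 4 were called lower in each state, and 2 in EpiLC and 3 in nESC higher; Tufm, the elongation factor Tu, gave -2.39 and -1.69, and Guf1, an elongation factor 4 homologue, 2.67 and 3.43. Of 27 assembly and rRNA modification genes 11 in EpiLC and 10 in nESC were called lower and 2 and 4 higher, and of 17 mitochondrial tRNA synthetases 3 and 4 lower and 1 and 4 higher. Of 16 genes of mitochondrial transcription and RNA stability 5 in EpiLC and 4 in nESC were called lower and 2 and 5 higher. The median difference was -0.85 and -0.68 for assembly genes and -0.28 and 0.21 for tRNA synthetases. Of cytosolic ribosomal protein genes 85 of 85 were called lower in EpiLC (median -3.28) and 84 of 85 in nESC (median -3.79). The mitochondrial genome's own messages, the templates of this ribosome, were higher in the nucleoplasm: 13 of 13 in EpiLC and 11 of 13 in nESC were called higher in the nucleoplasm than in the cytoplasm (medians 2.89 and 1.69), where 20.1% and 20.5% of all genes were. Mitochondrial RNA in the nucleoplasm made 5.44% to 10.5% of the FPKM sum in EpiLC and 3.75% to 4.27% in nESC, against 0.505% to 0.661% in EpiLC cytoplasm and 0.626% to 0.835% in nESC cytoplasm; its part in the member values was not tested. In bulk RNA a change in the number of cells and in the RNA per cell cannot be told apart.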

How the data were processed

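The values analysed are FPKM tables that the authors deposited, 1 per state with 12 libraries each. Per the submitters' processing notes reads were aligned with TopHat2 to mm10 (GRCm38) and FPKM were made with Cuffnorm; their versions, the annotation, the normalization setting and strand use were not given in the sources used here. Gene symbols were taken from the reference tables for 29586 gene IDs, and 173 had none.

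From these FPKM, differences within a state were tested with limma 3.58.1 (R 4.3.3; two-sided, with the variance trend of eBayes) on log2(FPKM + 0.5), over the genes that averaged 1 FPKM or more in the state's 12 libraries. A call needed a Benjamini-Hochberg adjusted p under 0.05 over all genes tested and a fold of at least 2. The pseudocount of 0.5 understates folds of low genes. The difference between states used the 12 libraries of the 2 fractions, each library centred on its median. Each fit gave a gene a spread shared by all its groups, although chromatin libraries varied more than the others. The fit was tested on simulated data. Read depth was estimated. It came from the smallest steps of the FPKM, of which 82.7% to 93.0% of low values per library were whole multiples within 0.1. The lowest estimate behind a member value was 58.1 fragments (Mrps6 in EpiLC chromatin), and group medians were 871 to 5102. Estimates for members used the exonic length over all annotated transcripts of a gene. That can exceed the length of the transcripts present, so the estimates may be too high and are no lower bound.

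The labels do not say whether libraries with the same replicate number share a culture, and the main fits used no block. Their weak correlations (-0.22 to 0.18) do not settle this. In EpiLC, libraries numbered 3 had the highest mitochondrial message share on chromatin (5.41%) and in nucleoplasm (10.5%), cytoplasm (0.661%) and total RNA (3.01%). In nESC this held for nucleoplasm (4.27%) and total RNA (1.79%), but not for chromatin or cytoplasm. Members, gene lists and the rule for named genes were chosen with earlier results of these data known. In each comparison the rule covered up to 6 called members with the largest fold in each direction, those called against the majority and those not called where few. It also covered the 5 highest and lowest in total RNA, the 5 largest differences between states and 16 members with known roles. Not all of these were named. Of those with known roles Mrpl10, Mrpl11, Mrpl41 and Mrpl45 were left out, and for some comparisons fewer members were given. Names outside the rule were chosen after their values were seen. Alternatives were other pseudocounts, filters and scalings, leaving out libraries, a replicate block and a correction for length and GC content (spline with 5 df). Exon overlaps were read from GENCODE M21.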

Additional observations from a re-analysis of the deposited data

How the results depend on the processing

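Scaling each library to 1 sum, which moves all genes, changed most: members called lower were then 19 (EpiLC) and 16 (nESC) for chromatin minus cytoplasm, 2 and 1 for nucleoplasm minus cytoplasm and 12 and 18 for chromatin minus nucleoplasm, members called higher were 0 and 0 for cytoplasm minus total, the differences between states gave 1 call each, and the level difference of total RNA was -0.047. With that scaling 2.96% of all genes were called higher and 7.31% lower for chromatin minus cytoplasm between states. For nucleoplasm minus cytoplasm between states the shares were 0.547% and 3.94%. Among 74 values of named members that were checked, scaling to 1 sum turned the sign of 10. For chromatin minus cytoplasm these were Mrps2 (1.07), Mrps9 (1.11), Mrpl50 (1.09), Mrps22 (1.02), Mrps31 (0.94) and Mrps18b (0.29) in EpiLC and Mrps18b (1.19) and Mrpl33 (0.31) in nESC. The others were Mrpl33 (0.89) for EpiLC nucleoplasm minus cytoplasm and Mrpl12 (0.30) for nESC chromatin minus nucleoplasm. Sign changes of other members are not listed here. The correction for length and GC content left 30 (EpiLC) and 25 (nESC) members called lower for nucleoplasm minus cytoplasm, where 11.5% and 11% of all genes were. It left 22 called higher for EpiLC cytoplasm minus total, where 6.29% of all genes were. Among the same values of named members, this correction turned the sign for Mrpl1 on chromatin against cytoplasm (-0.50 in EpiLC and -0.45 in nESC) and for cytoplasm minus total (0.29 and 0.14). It also turned the sign for Mrps18b on nESC chromatin against cytoplasm (0.44), for Mrpl33 in nESC nucleoplasm against cytoplasm (-0.073) and for Mrpl12 in nESC chromatin against nucleoplasm (0.10). Centring each library on its median gave 29 nESC members called higher for cytoplasm minus total, where 21.7% of all genes were, against 16% as deposited. It gave -0.20 for Mrps2 in nESC chromatin minus cytoplasm. For chromatin minus cytoplasm between states, the count of 0 became 2 without both EpiLC libraries numbered 3, 1 without centring and 1 without the filter. The cause was not tested. In these settings 4.4%, 3.86% and 2.78% of all genes were called higher and 4.08%, 5.66% and 3.15% lower. Leaving out 1 library at a time gave 0 to 1 for chromatin minus cytoplasm between states and 0 for nucleoplasm minus cytoplasm between states. It gave 70 to 72 (EpiLC) and 67 (nESC) called lower for chromatin minus cytoplasm, and values between -0.023 and 0.20 for Mrps2 in nESC. A replicate block, with 72 members called lower in EpiLC and 67 in nESC for chromatin minus cytoplasm, changed no call of a named member. Deviations of same-numbered libraries from their group means had correlations of -0.22 to 0.18, which do not settle whether these libraries share a culture. Pseudocounts of 0.1 or 1, a filter at 5 FPKM, no trend and fitting only the 2 fractions changed no call of a named member. With the filter at 5 FPKM, 22.7% (EpiLC) and 23.2% (nESC) of all genes were called lower for nucleoplasm minus cytoplasm. For chromatin minus nucleoplasm 22.2% and 21.2% were called lower, and for cytoplasm minus total 15.9% and 16.3% higher.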
